A study of Mus musculus with 12 samples.

Results

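Genes that were almost silent in control pre-B cell lines and expressed in every BCR-ABL1 line were chosen by their measured levels. The rule took autosomal genes under 0.5 CPM in all 6 control lines and at 1 CPM or more in all 6 BCR-ABL1 lines. CPM is a gene's count per 1000000 counts of its line. Of 51826 genes in the table, 98 met these thresholds. Another 5 were left out because they are not autosomal, and 7 because their symbols were set aside by the rule. The remaining 86 genes are described here, and 16 genes met the same thresholds in the opposite direction. Since the levels in both conditions chose the 86 genes, their difference between the conditions is a description and was given no test.

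The lines came from C57BL/6 bone marrow, labelled pro-/pre B cells, of 2 mice. According to the study's methods the donors of wild-type marrow were female. Their age is not given in the sources used here. Marrow was kept for 7 days with interleukin 7 (IL7), the growth factor of B cell precursors, and was then transduced with the retroviral vector pMIG. The vector carried no insert (EV lines) or BCR-ABL1, the fusion kinase made by the Philadelphia chromosome. Each mouse gave 3 lines per condition, labelled by a number, read here as the mouse, and a letter (1A to 2C). The study's methods describe triplicates made in 3 independent experiments. Whether the letters stand for these experiments is not known here. All lines stayed in IL7 for 48 hours after transduction. IL7 was then withdrawn from the BCR-ABL1 lines for 1 week, whereas EV lines remained in IL7 and went through a sort for GFP, which the vector encodes. IL7 withdrawal, BCR-ABL1 and the missing sort therefore coincide in these 6 lines and cannot be told apart. The lines are transduced populations of only 2 animals, and p-values between the mice measure the spread between lines of each mouse.

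A pre-B cell is a B lymphocyte precursor that rearranges its immunoglobulin genes and divides in response to IL7. BCR-ABL1 is an active tyrosine kinase that replaces growth factor signals and drives the STAT5, PI3K and RAS pathways. Genes that serve other tissues are usually kept silent in B cell precursors, so a gene that goes from no reads to steady reads may belong to any cell type. In RNA of whole cultures, a gene expressed in few cells and a gene expressed weakly in all cells cannot be told apart.

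Total counts per line ranged from 34791011 to 66011225, so that 1 CPM stood for 45 to 66 counts in the BCR-ABL1 lines and 3 counts for 0.0455 to 0.0862 CPM. The 12 B lineage markers checked, among them Cd79a and Pax5, summed to between 5678 and 8204 CPM in EV lines and to between 4998 and 5605 CPM in BCR-ABL1 lines, without overlap. Of these markers 1 was called lower, the IL7 receptor gene Il7r (log2 fold change -1.06, edgeR adjusted p = 0.00328). Myeloid markers summed to at most 1.78 CPM in EV and 0.830 CPM in BCR-ABL1 lines, and 6 of the 12 (Elane, Cd14, S100a8, S100a9, Csf3r and Ctsg) had no more than 3 counts in any line. Mast cell and basophil markers summed to at most 0.287 CPM. T and NK cell markers summed to between 11.1 and 44.8 CPM in EV lines and to between 0.710 and 4.84 CPM in BCR-ABL1 lines, opposite to the direction of the 86 genes. The sums in EV lines were mostly the T cell receptor gene Trac, at 9.97 to 43.8 CPM. Cd3e, Cd4 and Cd8a reached at most 0.115, 0.201 and 0.172 CPM in any EV line. Stromal and endothelial markers overlapped between the conditions, with sums of 32.7 to 169 CPM in EV lines against 78.8 to 99.2 CPM in BCR-ABL1 lines. Sums of erythroid and megakaryocyte markers were 3.20 to 8.99 CPM (EV) and 6.6 to 13.1 CPM (BCR-ABL1), and Hba-a1 and Pf4 had no more than 3 counts in any line. Hbb-bt was called higher in BCR-ABL1 lines (log2 fold change 1.72, edgeR adjusted p = 0.0296) and Itga2b lower (-0.99, edgeR adjusted p = 0.0470). Sums of dendritic cell markers were 2.56 to 9.65 CPM (EV) and 7.87 to 13.6 CPM (BCR-ABL1). Flt3 was called higher (3.61, edgeR adjusted p = 2.86e-05) and Zbtb46 lower (-1.91, edgeR adjusted p = 0.0139). The part of these cell types in the levels of the 86 genes was not tested.

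Together the 86 genes amounted to between 464 and 623 CPM in the BCR-ABL1 lines (median 513 CPM) and to between 5.40 and 20.8 CPM in the EV lines (median 7.16 CPM). The sums were 7.56, 5.81 and 5.40 CPM in EV lines 1A, 1B and 1C, and 20.8, 9.90 and 6.75 CPM in EV lines 2A, 2B and 2C. EV line 2A stood apart from the other control lines. It held the highest control value of 60 of the 86 genes, and 41 of them were at 0.25 CPM or more in it. In that line the median gene reached 6.81% of its mean in the BCR-ABL1 lines of the same mouse. In the other 5 EV lines this share was between 0.314% and 2.46%. Line 2A also had the smallest total count. Its T and NK cell marker sum of 26.3 CPM lay within the range of the other EV lines, as did its stromal sum of 106 CPM, which is nearly all Pecam1 in every line. Its myeloid sum of 1.78 CPM and its mast cell and basophil sum of 0.287 CPM were the highest of all lines. The part of these in its residual reads was not tested. Residual reads in line 2A were not limited to the 86 genes. The CCN matricellular protein genes summed to 0.805 CPM in it, of which Ccn3, a gene of the 86, had 0.0862 CPM. In the other EV lines they summed to between 0.0465 and 0.156 CPM. Only 4 genes (Pla2g2f, Lrrc32, Sln and Ccn3) had 3 counts or fewer in every EV line, and 31 had at least 1 read in all 6.

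**Figure D1:**
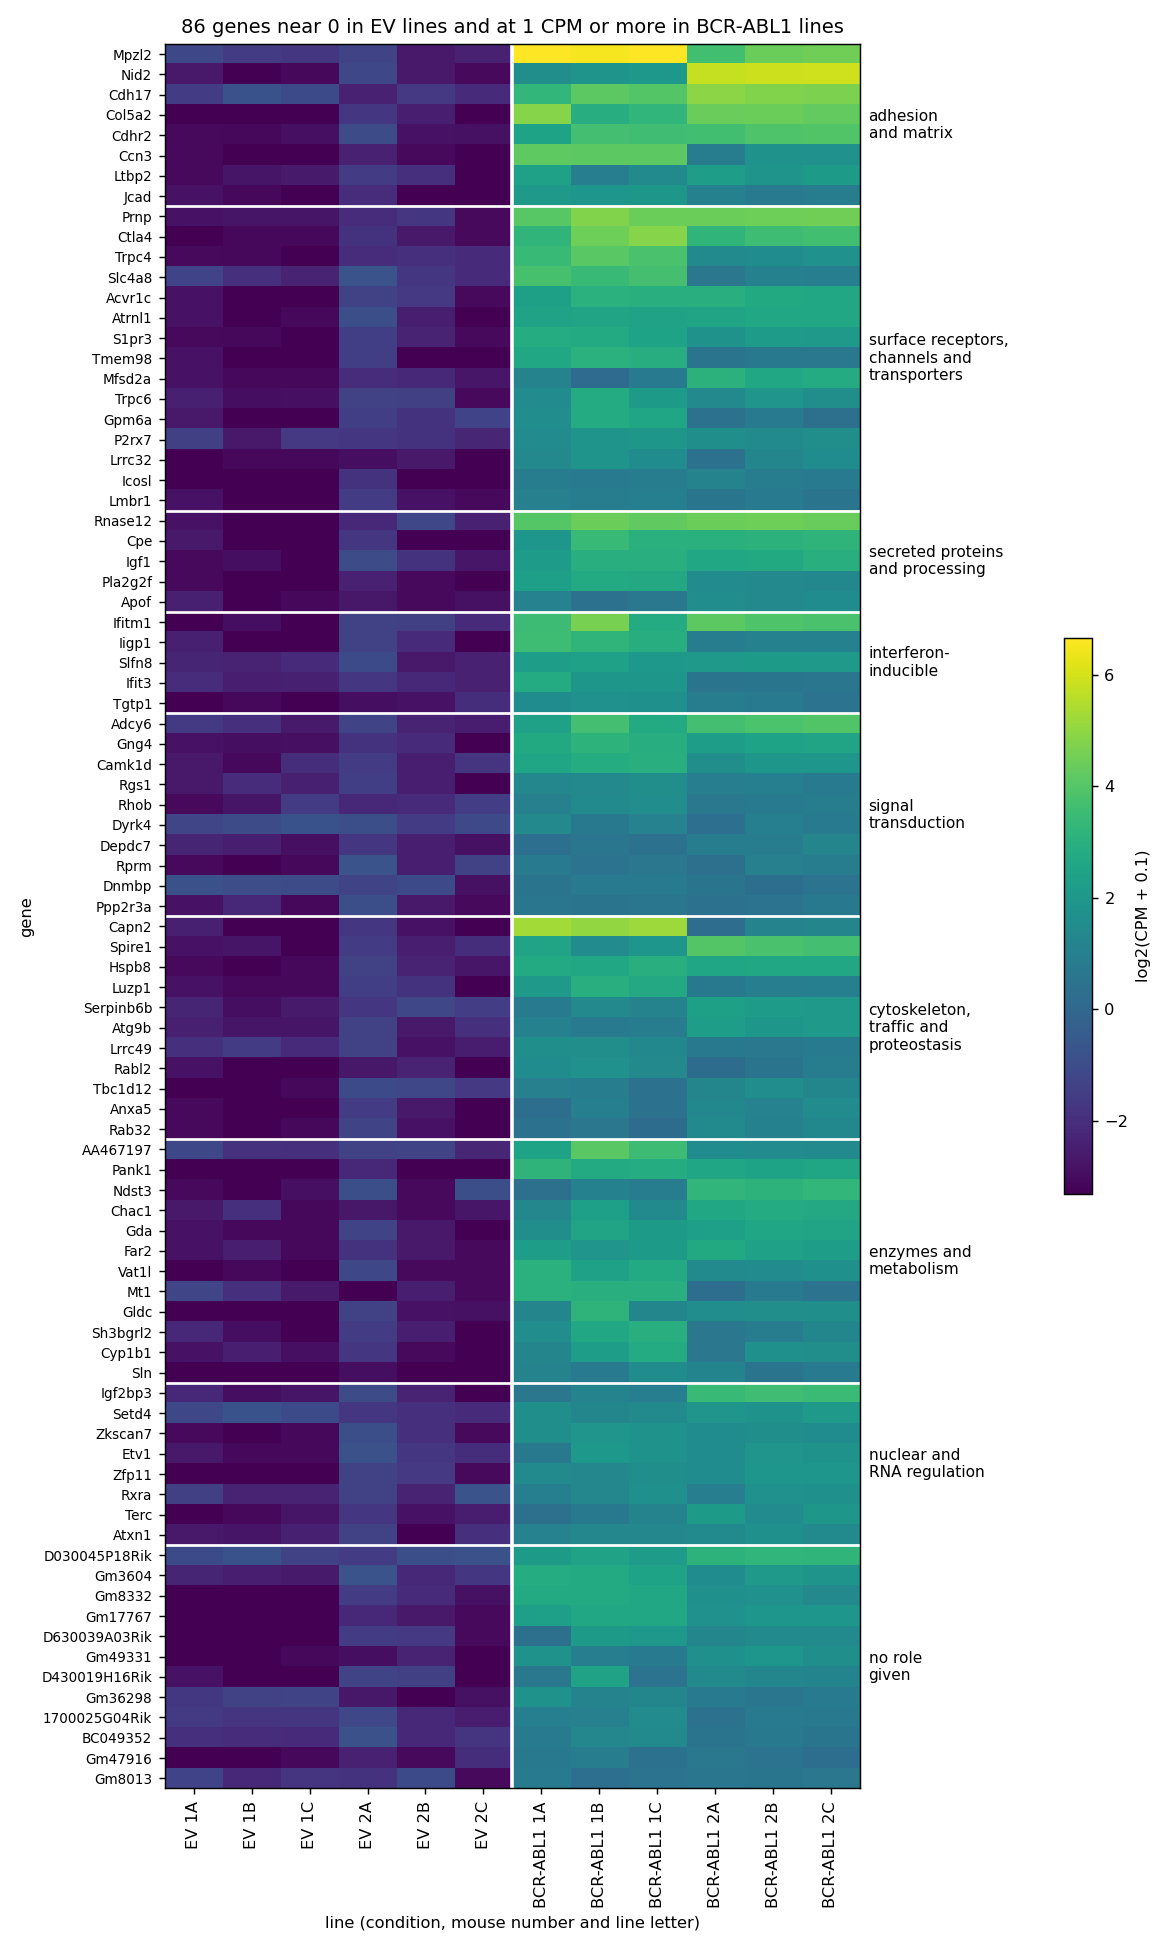
Level of each of the 86 genes (rows, in groups of similar function) in each of the 12 lines (columns, 6 EV and 6 BCR-ABL1), as log2(CPM + 0.1) by color. The EV columns are dark, with line 2A the brightest of them (summed level 20.8 CPM), and several rows on the right, among them Nid2, Capn2 and Mpzl2, differ between the lines of mouse 1 and mouse 2.

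The 86 genes were weakly to moderately expressed once on. Their mean over the 6 BCR-ABL1 lines was from 1 to under 3 CPM for 31 genes, from 3 to under 10 CPM for 43 and at 10 CPM or more for 12. The median gene had 3.77 CPM, or 0.918 CPM per kb of exons, against 16.2 CPM and 4.31 CPM per kb over all tested genes. Per kb of exons, the highest was Rnase12 at 29.5 CPM per kb ± 3.09 (SD, n = 6), followed by Ifitm1 at 13.5 ± 5.30, Gm8332 at 11.0 ± 4.64, Prnp at 9.25 ± 1.44 and Mpzl2 at 8.26 ± 6.18. The SDs of the last 4 overlap, and that of Rnase12 does not reach them. In the fit of BCR-ABL1 against EV lines over 15038 genes, with edgeR's test against a 1.5-fold change, all 86 were called higher beside 5.99% of tested genes higher and 6.49% lower. This count follows from the rule and nothing is read from it.

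A comparison that the rule did not use is that between the BCR-ABL1 lines of the 2 mice. All 86 genes passed the count filter for it. By edgeR's quasi-likelihood test at an adjusted p under 0.05 over 15195 genes, 29 of the 86 (33.7%) were higher in lines of mouse 1, where 11.1% of all tested genes were, and 15 (17.4%) were higher in lines of mouse 2, where 11.0% of all tested genes were. The other 42 were not called. The 3 lines of one mouse did not overlap the 3 lines of the other for 52 of the 86 genes (60.5%), against 40.5% of all tested genes. Differences were called and over 2-fold for 26 of the 86 (30.2%) and for 8.52% of tested genes. Other genes called higher in BCR-ABL1 lines, 815 in all, were called between the mice in 27.1% (higher in mouse 1) and 21.7% (higher in mouse 2). Tested genes of the same range of mean level, from 1.37 to 57.6 CPM, were called in 12.5% and 12.6%. No test compared these shares with each other. The 1 CPM that the rule asks of every BCR-ABL1 line limits how far a gene could differ between the mice. In a fit of all 12 lines, where the EV lines add their spread, 12 of the 86 were called higher in mouse 1 and 9 in mouse 2, and over all genes the counts were 518 and 557 instead of 1686 and 1674.

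**Figure D2:**
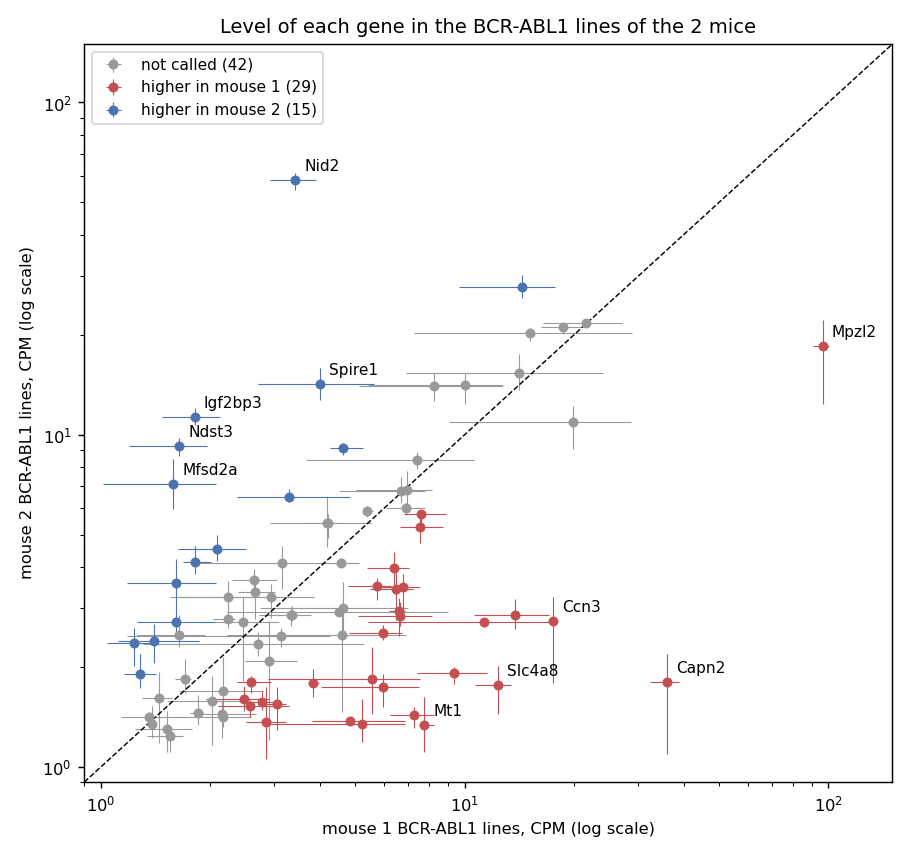
Mean CPM of each of the 86 genes in the 3 BCR-ABL1 lines of mouse 1 (x axis, log scale) and of mouse 2 (y axis, log scale), with bars from the lowest to the highest line and color for the edgeR call. Most points lie within a few-fold of the dashed line of equal levels, whereas Capn2, Slc4a8 and Mpzl2 lie far below it and Nid2 and Igf2bp3 far above it.

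Adhesion and matrix genes made up 8 of the 86 and held the highest levels in CPM, with means from 2.82 to 57.6 CPM. They connect cells to each other or to the matrix around them. Of the 8, 3 were higher in mouse 1, 2 were higher in mouse 2 and 3 were not called. Mpzl2, an adhesion molecule of thymus epithelium related to the immunoglobulins, had 98.6, 90.7 and 100.5 CPM in BCR-ABL1 lines 1A, 1B and 1C and 12.4, 21 and 22.2 CPM in 2A, 2B and 2C. The mice did not overlap, and the log2 difference of mouse 2 minus mouse 1 was -2.42 (SE 0.25, edgeR adjusted p = 2.83e-05). The EV lines had 0.0584 to 0.347 CPM. Of its exon bases, 30.7% also belong to a gene on the other strand, Gm48840, and the strand setting of the counting is not given in the sources used here. Nid2 encodes nidogen 2, a linker protein of basement membranes. It went the other way, with 2.91, 3.46 and 3.91 CPM in mouse 1 and 54.4, 59.9 and 61.5 CPM in mouse 2, a log2 difference of 4.08 (SE 0.12, edgeR adjusted p = 8.60e-08). Ccn3, a secreted matricellular protein, had 18, 17.4 and 17.3 CPM in mouse 1 and 1.79, 3.26 and 3.20 CPM in mouse 2, and no EV line exceeded 0.0862 CPM (log2 difference -2.70, SE 0.26, edgeR adjusted p = 1.97e-05).

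Both intestinal cadherins of the group were on in every line. Cdh17, which joins cells of the intestinal lining, had a lowest, median and highest level of 9.68, 21.8 and 30.2 CPM in BCR-ABL1 lines and of 0.0862, 0.230 and 0.465 CPM in EV lines. It was higher in mouse 2, by 0.93 on the log2 scale (SE 0.28, edgeR adjusted p = 0.00891). Cdhr2, a protocadherin of the intestinal brush border, had 5.41, 12.6 and 12.1 CPM in mouse 1 and 12.3, 14.8 and 15.4 CPM in mouse 2, and the difference was not called. Col5a2, a chain of fibril-forming collagen V, varied between lines of a single mouse, with 28.9, 7.24 and 9.35 CPM in mouse 1 beside 20.8, 21 and 19.1 CPM in mouse 2. Its mice overlapped and were not called different. Without line 1A, Col5a2 was called higher in mouse 2 (log2 difference 1.27, edgeR adjusted p = 4.03e-04). Ltbp2, a microfibril protein that belongs to the latent TGF beta binding proteins, ranged from 1.80 to 5.07 CPM and was likewise called for mouse 2 only without line 1A (0.88, edgeR adjusted p = 0.0262). Jcad, a junction protein of endothelium, had 3.70 to 3.99 CPM in mouse 1 and 1.62 to 1.98 CPM in mouse 2 and was called higher in mouse 1.

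Surface receptors, channels and transporters were the largest group, with 15 genes. Of these, 5 were higher in mouse 1, 1 was higher in mouse 2 and 9 were not called. Their means lay between 1.65 and 21.7 CPM. Prnp, the prion protein gene of neurons, had a lowest, median and highest level of 16.4, 21.5 and 27 CPM in the BCR-ABL1 lines, and its mean did not differ beyond the spread of lines (21.6 CPM ± 5.32 in mouse 1 and 21.7 CPM ± 0.440 in mouse 2, SD, n = 3). Ctla4, an inhibitory receptor that T cells use to restrain activation, had 9.05, 21.8 and 28.6 CPM in mouse 1 and 9.05, 11.5 and 12.2 CPM in mouse 2, and no EV line exceeded 0.172 CPM. The mice overlapped and were not called different, but without line 1A Ctla4 was called higher in mouse 1 (log2 difference -1.23, edgeR adjusted p = 8.90e-04). Of the 3 T and NK cell markers tested, Trac and Cd3d were lower in the BCR-ABL1 lines and Klrb1c was not called. Trac, the T cell receptor alpha constant gene, had 9.97 to 43.8 CPM in EV lines against 0.212 to 1.30 CPM in BCR-ABL1 lines. Icosl, the ligand of a T cell costimulatory receptor, had 1.60 to 2.11 CPM, with reads in EV line 2A only among the controls. Lrrc32, which holds latent TGF beta on regulatory T cells and platelets, had 1.2 to 3.46 CPM.

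Several channels and transporters of this group differed between the mice. Slc4a8, a sodium-driven bicarbonate transporter of neurons, had 13.4, 10.7 and 13.0 CPM in mouse 1 and 1.44, 2.02 and 1.84 CPM in mouse 2 (log2 difference -2.83, SE 0.16, edgeR adjusted p = 5.82e-06). Trpc4, a cation channel of brain and vessels, had 10.6, 17.0 and 13.7 CPM in mouse 1 and 2.60, 2.82 and 3.20 CPM in mouse 2 (log2 difference -2.29, SE 0.21, edgeR adjusted p = 4.02e-05). The mice did not overlap for either gene. Trpc6, a related channel of podocytes and smooth muscle, had 2.5 to 7.00 CPM and was called between the mice only without line 1A (log2 difference -0.92, edgeR adjusted p = 0.0327). Mfsd2a, a lipid transporter of the blood-brain barrier, was the only gene of the group called higher in mouse 2, with 2.08, 1.01 and 1.66 CPM in mouse 1 and 8.43, 5.97 and 6.87 CPM in mouse 2 (log2 difference 2.12, SE 0.34, edgeR adjusted p = 4.15e-04). Acvr1c, the activin receptor ALK7 of fat and pancreatic islets, was on at an even level of 5.03 to 8.15 CPM. S1pr3, a receptor for sphingosine 1-phosphate, had 5.39 to 7.04 CPM in mouse 1 and 3.33 to 4.44 CPM in mouse 2 and was called. P2rx7, the ATP-gated channel of macrophages, had 2.65 to 3.78 CPM. The membrane proteins Tmem98 and Gpm6a were also higher in mouse 1, with means of 7.24 and 5.23 CPM beside 1.44 and 1.35 CPM in mouse 2.

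Secreted proteins and a protein that processes them formed a group of 5, of which 1 was higher in mouse 1, 1 was higher in mouse 2 and 3 were not called. Rnase12, a secreted protein of the ribonuclease A family that is normally made in the epididymis, had a lowest, median and highest level of 16.2, 20.5 and 21.6 CPM in the BCR-ABL1 lines and at most 0.331 CPM in EV lines. Igf1, the insulin-like growth factor of liver, had 4.51, 7.02 and 7.79 CPM in the same order, and Cpe, the carboxypeptidase that trims peptide hormones, 3.66, 8.14 and 10.6 CPM. None of the 3 was called between the mice. Pla2g2f, a secreted phospholipase of skin, had 4.80, 6.72 and 6.37 CPM in mouse 1 and 2.68, 2.5 and 2.40 CPM in mouse 2 (log2 difference -1.26, SE 0.16, edgeR adjusted p = 5.10e-04). Apof, an apolipoprotein of liver, was higher in mouse 2, with a mean of 2.72 CPM beside 1.61 CPM.

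The interferon-inducible genes were 5 (Ifitm1, Iigp1, Slfn8, Ifit3 and Tgtp1), and 3 of them were higher in mouse 1. Genes of this kind are commonly switched on through the interferon-stimulated response element, a promoter sequence in which TTTC recurs a few bases on. Promoter windows from RefSeq on GRCm38.p6, each from 250 bases before to 50 bases from the start on, were searched on both strands for TTTC followed by any 2 bases and TTTC again, a motif added after the genes were known. Windows were held for 66 of the 86 genes. Ifit3 had 2 matches, and Slfn8 and Tgtp1 had 1 each, whereas the Ifitm1 window had none. The other genes with a match were Igf2bp3 and Gm8013. These 5 are 7.58% of the 66, and 3.49% of all 27025 promoters held the motif. The part of each of the windows that holds the matches is printed to show them, 5′ to 3′ on the gene's strand, with matches in capitals. In Tgtp1 a neighbouring TTCNNNGAA, the core of sites for STAT proteins, is in capitals too.
Ifit3 (chr19:34583359-34583548, plus strand): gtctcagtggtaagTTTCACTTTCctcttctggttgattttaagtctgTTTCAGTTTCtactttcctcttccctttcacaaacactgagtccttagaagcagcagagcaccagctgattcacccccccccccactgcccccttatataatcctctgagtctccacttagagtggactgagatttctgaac
Slfn8 (chr11:83020791-83020930, minus strand): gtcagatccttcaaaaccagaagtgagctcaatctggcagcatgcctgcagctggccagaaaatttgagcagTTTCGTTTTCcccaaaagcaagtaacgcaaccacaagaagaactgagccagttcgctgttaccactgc
Tgtp1 (chr11:48992227-48992366, minus strand): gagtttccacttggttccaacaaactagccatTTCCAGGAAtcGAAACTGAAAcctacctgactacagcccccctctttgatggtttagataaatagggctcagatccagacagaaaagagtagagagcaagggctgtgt
The Tgtp1 window starts 1926 bases from the outermost start of the gene in GENCODE. A match is a description of the sequence and does not show that a factor binds there.

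Levels of the 5 were not uniform. Ifitm1, a membrane protein that limits virus entry, had 11.4, 24.1 and 6.92 CPM in mouse 1 and 17.5, 14.8 and 13.6 CPM in mouse 2 and was not called. Iigp1, a GTPase that attacks the vacuoles of intracellular parasites, had 11.5, 9.10 and 7.38 CPM in mouse 1 and 1.77, 2.00 and 1.96 CPM in mouse 2 (log2 difference -2.32, SE 0.19, edgeR adjusted p = 3.82e-05). Ifit3, which takes part in blocking viral RNA, had 6.87, 3.82 and 3.80 CPM in mouse 1 and 1.35, 1.36 and 1.40 CPM in mouse 2 (log2 difference -1.85, SE 0.28, edgeR adjusted p = 8.91e-04). Tgtp1, a GTPase of the same family as Iigp1, had 2.81, 3.24 and 3.10 CPM in mouse 1 and 1.74, 1.61 and 1.29 CPM in mouse 2 and was called. In all 3 the mice did not overlap. Slfn8, of the Schlafen family, had 3.87 to 5.14 CPM and was not called. Tgtp1 shares 6.96% of its exon bases with Gm12185 on the same strand and is nearly a copy of Tgtp2, so reads could be split between these genes.

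The lines held further genes of these families, taken from lists written for this purpose. Of 17 tested guanylate binding proteins and immunity related GTPases, 12 were higher and 0 lower in the BCR-ABL1 lines, Iigp1 and Tgtp1 included. Without these 2 it was 10 of 15, with a median log2 fold change of 2.33. Gbp7 rose from 6.21 to 29.4 CPM in EV lines to 507 to 625 CPM in BCR-ABL1 lines (log2 fold change 5.33, SE 0.37, edgeR adjusted p = 5.87e-06), and Gbp2 from 0.914 to 5.88 CPM to 51.3 to 142 CPM (5.10, SE 0.53, edgeR adjusted p = 9.46e-05). Of 7 tested Schlafen genes, 5 were higher and 0 lower, and 4 of the 6 besides Slfn8. Slfn2 rose from 0.228 to 6.55 CPM to 168 to 188 CPM (log2 fold change 6.30, SE 0.85, edgeR adjusted p = 2.96e-04). Such a count over a family stands beside a median log2 fold change of -0.02 and the 5.99% called higher over all tested genes. Slfn1 (at most 0.0195 CPM in EV lines) and Gbp2b (at most 0.17 CPM) passed the count filter through the BCR-ABL1 lines. The counts are therefore in part fixed by the filter.

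Signal transduction genes numbered 10, with means from 1.37 to 11.1 CPM. Of these, 4 were higher in mouse 1, 1 was higher in mouse 2 and 5 were not called. Gng4, a G protein gamma subunit of brain, had 6.64, 8.72 and 7.25 CPM in mouse 1 and 4.73, 5.44 and 5.62 CPM in mouse 2 (log2 difference -0.55, SE 0.13, edgeR adjusted p = 0.0152). Adcy6, an adenylyl cyclase of heart, had 5.12 to 12.8 CPM in mouse 1 and 12.6 to 15.3 CPM in mouse 2 and was not called. Camk1d, a calcium and calmodulin dependent kinase, had means of 6.79 and 3.48 CPM. Rgs1, which shortens chemokine receptor signals in lymphocytes, and Rhob, a small GTPase, had means of 2.59 and 2.48 CPM in mouse 1 and of 1.80 and 1.60 CPM in mouse 2. All 3 were called higher in mouse 1, and Depdc7 was called higher in mouse 2. Ppp2r3a, a regulatory subunit of protein phosphatase 2A, was the lowest of all 86 genes in mean level, at 1.37 CPM.

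Cytoskeleton, membrane traffic and proteostasis genes numbered 11, and 9 of them differed between the mice, 4 higher in mouse 1 and 5 higher in mouse 2. Capn2, a calcium-activated protease, had the widest difference among the 86 genes. It had 38.9, 32.4 and 36.6 CPM in mouse 1 and 1.09, 2.11 and 2.19 CPM in mouse 2, and the lowest value lay just above the 1 CPM of the rule. The log2 difference was -4.35 (SE 0.31, edgeR adjusted p = 2.79e-06). EV lines of both mice had at most 0.201 CPM. Of its exon bases, 27.1% also belong to the antisense gene Gm37885. Spire1, which starts actin filaments, had 5.64, 2.71 and 3.67 CPM in mouse 1 and 15.9, 13.8 and 12.8 CPM in mouse 2 (log2 difference 1.78, SE 0.33, edgeR adjusted p = 7.88e-04). Hspb8, a small heat shock protein of muscle, was even at 5.75 to 7.78 CPM and was not called. Luzp1, Lrrc49 and Rabl2 were higher in mouse 1. Serpinb6b, Atg9b, Anxa5 and Rab32 were higher in mouse 2. Anxa5, the annexin that binds phosphatidylserine, had 1.11 to 1.86 CPM in mouse 1 and 2.06 to 2.69 CPM in mouse 2.

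Of 12 enzymes and other metabolic genes, 5 were higher in mouse 1, 2 were higher in mouse 2 and 5 were not called. Mt1, the metal-binding metallothionein of liver, had 8.22, 7.51 and 7.47 CPM in mouse 1 and 1.11, 1.62 and 1.27 CPM in mouse 2 (log2 difference -2.55, SE 0.15, edgeR adjusted p = 1.01e-05). Ndst3, which modifies heparan sulfate in brain, went the other way with 1.19, 1.96 and 1.77 CPM in mouse 1 and 9.33, 8.63 and 9.76 CPM in mouse 2 (log2 difference 2.48, SE 0.22, edgeR adjusted p = 2.53e-05). The mice did not overlap for these genes. AA467197 had 5.41, 17.2 and 11.2 CPM in mouse 1 and 2.63 to 2.81 CPM in mouse 2 and was called. Chac1, a glutathione-degrading enzyme of the unfolded protein response, had 2.37 to 4.83 CPM in mouse 1 and 6.28 to 6.86 CPM in mouse 2. Its call (edgeR adjusted p = 0.0218) was lost without BCR-ABL1 line 1A, 1C or 2B (0.0573, 0.0898 and 0.0600). Pank1, a pantothenate kinase of liver that starts coenzyme A synthesis, had 5.42 to 8.88 CPM. Its call for mouse 1 (edgeR adjusted p = 0.0425) was likewise lost without line 1A, 1C, 2B or 2C (0.0682 to 0.128). Gldc, the glycine cleavage decarboxylase, had 8.98 CPM in line 1B and 2.22 to 3.01 CPM in the other 5 BCR-ABL1 lines. Sln, the sarcolipin of muscle, was the quietest gene in controls, with 1 read in all 6 EV lines together and 1.32 to 2.79 CPM in the BCR-ABL1 lines.

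Nuclear and RNA-regulating genes numbered 8, with means from 2.51 to 6.55 CPM. None was higher in mouse 1, 2 were higher in mouse 2 and 6 were not called. Igf2bp3, an RNA-binding protein of fetal tissues, had 1.47, 2.12 and 1.83 CPM in mouse 1 and 10.7, 12.1 and 11.1 CPM in mouse 2 (log2 difference 2.62, SE 0.15, edgeR adjusted p = 7.23e-06). Of its exon bases, 18.7% also belong to Malsu1 on the other strand. Terc, the RNA component of telomerase, had 1.18, 1.56 and 2.08 CPM in mouse 1 and 4.23, 2.73 and 3.74 CPM in mouse 2 (log2 difference 1.14, SE 0.30, edgeR adjusted p = 0.0104). The transcription factors Etv1 and Rxra had 1.55 to 3.84 CPM and 1.81 to 3.24 CPM in the BCR-ABL1 lines. Rxra is the retinoid X receptor alpha, a partner of many nuclear receptors, and its EV value reached 0.486 CPM in line 2C. Etv1 is an ETS factor of brain and heart. Atxn1, Setd4, Zfp11 and Zkscan7 had means between 2.51 and 3.14 CPM.

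The remaining 12 genes were given no role, and 6 of them are not protein-coding. D030045P18Rik, a long noncoding RNA, was the highest of the 12 in CPM, with 4.27 to 5.26 CPM in mouse 1 and 8.70 to 9.47 CPM in mouse 2 (log2 difference 0.95, SE 0.10, edgeR adjusted p = 4.07e-04). Its EV lines had 0.230 to 0.465 CPM. Gm8332, a coding gene with a close relative (Gm8300) on the same chromosome, had 6.21 to 6.84 CPM in mouse 1 and 2.49 to 3.23 CPM in mouse 2. Gm8013 and Gm47916 (noncoding) and Gm49331 (a pseudogene) had means of 1.39, 1.41 and 2.74 CPM and were not called between the mice. Without line 1A, Gm49331 was called higher in mouse 2 (0.88, edgeR adjusted p = 0.00846). Reads of pseudogenes and of recent copies may stem from their relatives, and this was not tested.

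Most of the 86 genes code for protein. Of the 86, 79 (91.9%) were protein-coding, 4 were long noncoding RNAs, 2 were pseudogenes and 1 was another RNA (Terc). Among all tested genes, 75.4% were protein-coding. Of the 16 genes with the opposite pattern, 7 were protein-coding and 8 were long noncoding RNAs. By general knowledge of where each gene is normally used, 17 were ascribed to brain or neurons, 10 to heart, muscle or vessels, 9 to immune cells, 8 to liver, 6 to intestine, skin or mucosa, 5 to testis, epididymis or germ cells and 4 to connective tissue or basement membranes. Another 8 are used broadly, and 23 were not assigned. A gene could be ascribed to more than 1 tissue, and no single tissue accounted for most of the genes. These counts rest on a hand-made assignment, and no background was set beside them.

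Families of the 86 genes were read from lists drawn up with earlier results of these data known, so their counts are descriptions. They stand beside 5.99% of all tested genes called higher and 6.49% called lower. Genes near 0 in EV lines could pass the count filter through the BCR-ABL1 lines, and genes that failed it could not be called. Here and in the families that follow, the counts are therefore in part fixed by the filter. In the IGF system, 7 of 10 tested genes were higher and 0 lower, and 5 of 8 without Igf1 and Igf2bp3, which the rule chose for being higher. Among these 5, Igf2bp2 and Igfbp4 had at most 0.345 and 0.546 CPM in EV lines. Grb10, an adaptor of the insulin and IGF1 receptors, rose from 0.0163 to 0.632 CPM to 4.07 to 12.4 CPM (log2 fold change 5.73, SE 0.62, edgeR adjusted p = 5.34e-04), and Irs2, a docking protein of the same receptors, from 0 to 1.58 CPM to 9.26 to 12.6 CPM (5.15, SE 0.91, edgeR adjusted p = 0.0102). Igf1r, the receptor itself, had 0.0163 to 0.776 CPM in EV lines against 0.991 to 7.02 CPM in BCR-ABL1 lines (3.74, SE 0.90, edgeR adjusted p = 0.0198). The receptors Insr and Igf2r and the docking protein Irs1 were tested and not called (log2 fold changes 2.48, 1.69 and -0.62).

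In the retinoid pathway, 5 of 7 tested genes were higher and 0 lower, and 4 of 6 without Rxra. Aldh1a7, an aldehyde dehydrogenase, rose from 0 to 0.719 CPM to 23.2 to 178 CPM (log2 fold change 8.78, SE 0.86, edgeR adjusted p = 5.00e-05). Of its relatives on the list, Aldh1a1 and Aldh1a2 did not pass the count filter. Aldh1a3 was tested and not called (1.05, SE 0.31, edgeR adjusted p = 0.170). Among 12 tested synaptic and neuropeptide genes, 9 were higher and 0 lower, and 7 of the 10 besides Cpe and Gpm6a. Crhbp, the binding protein of corticotropin-releasing hormone, rose from 0.0575 to 0.604 CPM to 44.4 to 68.1 CPM (7.74, SE 0.41, edgeR adjusted p = 5.18e-07). Among claudin, cadherin and tetraspanin genes of epithelia, the 5 tested were higher, of which Cdh17 and Cdhr2 were chosen for it, which leaves 3 of 3. Epcam, the epithelial adhesion molecule, had 0 to 0.0862 CPM in EV lines against 0.556 to 1.68 CPM in BCR-ABL1 lines (5.57, SE 0.38, edgeR adjusted p = 1.60e-04). Of 18 genes on that list only these 5 passed the filter, Epcam and Cdh1 (at most 0.230 CPM in EV lines) through the BCR-ABL1 lines, so the count was largely fixed by the filter.

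The arachidonate and phospholipid mediator genes had 6 of 10 higher, or 4 of 8 without Pla2g2f and S1pr3, and 1 lower, the receptor S1pr2 (log2 fold change -1.53, SE 0.32, edgeR adjusted p = 0.0246). Among 7 tested macrophage and microglia genes, 4 were higher, or 3 of 6 without P2rx7, and Tmem119, a surface marker of microglia, rose from 0.0818 to 2.55 CPM to 9.25 to 112 CPM (6.71, SE 0.92, edgeR adjusted p = 9.66e-04). The myeloid markers given above stayed at or under 1.78 CPM in sum. Of 11 tested basement membrane and fibril matrix genes, 4 were higher (Nid2, Col5a2, Ltbp2 and Col5a3) and 1 was lower. The first 3 were chosen for being higher, which leaves 1 higher and 1 lower of 8. The lower gene was the laminin chain Lamb1 (-6.17, SE 0.87, edgeR adjusted p = 7.05e-04). The 2 TRPC channels that passed the filter, of 7, are Trpc4 and Trpc6, and the 1 CCN gene that did so, of 6, is Ccn3. Acvr1c and Acvr1 were the 2 of 5 tested activin and TGF beta type I receptors that were higher. Lists that hold none of the 86 genes were read as well. Of 19 tested semaphorins, plexins and neuropilins, 7 were higher and 2 lower, of 8 ephrins and Eph receptors, 2 and 2, of 8 GIMAP genes, 2 and 0, and the only caveolae gene tested, Cav2, was higher.

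The 86 genes lay on all 19 autosomes, with 8 each on chromosomes 2, 9 and 13, 7 on chromosome 19 and 1 each on chromosomes 16 and 17. Few were close to each other. Within 500 kb of another were 6 of the 86 (6.98%), in 3 pairs, and 0 of the 16 genes with the opposite pattern. A smaller set has fewer chances of a close pair, so these counts cannot be compared. No share for other sets of 86 genes was set beside them. On chromosome 9, Mpzl2 (45039799 to 45054015) and BC049352 (45182007 to 45250020) were 128 kb apart. On chromosome 13, the zinc finger gene Gm3604 (62368328 to 62383177) and the pseudogene Gm36298 (62639886 to 62643252) were 257 kb apart, and on chromosome 19, Ifit3 (34583531 to 34588731) and Pank1 (34806940 to 34879455) 218 kb (GRCm38, GENCODE M21). Both Gm3604 and Gm36298 and both Ifit3 and Pank1 were called higher in mouse 1. The call of Gm36298 was lost without line 2B or 2C (edgeR adjusted p = 0.0720 and 0.0590), and BC049352 was called higher in mouse 1 without line 1A (log2 difference -0.82, edgeR adjusted p = 0.0102).

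Genes between the partners of a pair were in part higher too. Between Mpzl2 and BC049352 lay Scn4b, a sodium channel subunit, with 4.13 to 10.8 CPM in EV lines against 48.1 to 124 CPM in BCR-ABL1 lines (log2 fold change 3.44, SE 0.32, edgeR adjusted p = 3.57e-05), and the protease Tmprss4 (2.60, SE 0.29, edgeR adjusted p = 2.31e-04). The adhesion molecule gene Jaml was called as well (2.60, SE 0.75, edgeR adjusted p = 0.0418), while Scn2b was not called (-0.23, SE 0.55). Between Ifit3 and Pank1, the related genes Ifit1bl1, Ifit3b and Ifit1 were each called higher, with log2 fold changes of 4.95, 5.54 and 5.75. Ifit1 had at most 0.0360 CPM in EV lines against 0.230 to 1.05 CPM in BCR-ABL1 lines, so it missed the 1 CPM of the rule. Between Gm3604 and Gm36298, 6720489N17Rik was higher (4.85, SE 1.05, edgeR adjusted p = 0.00827), and Zfp934, with 17.5 to 31.5 CPM over all lines, was not called.

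To see whether genes next to the 86 were also higher, the nearest tested gene on each side that is not one of them was taken, 172 genes in all. None of these genes met the rule. Of the 172, 27 (15.7%) were higher in BCR-ABL1 lines, where 5.99% of all tested genes were, and 8 (4.65%) were lower, where 6.49% were. Their median log2 fold change was 0.29 against -0.02 for all tested genes, and 111 of 172 were above 0. The share that was higher was smaller at longer distances. It was 4 of 10 for neighbours that overlap one of the 86 genes, 9 of 30 (30.0%) up to 20 kb away, 7 of 54 (13.0%) from 20 to 100 kb, 5 of 48 (10.4%) from 100 to 500 kb and 2 of 30 (6.67%) beyond 500 kb. Without the first bin, which holds under 20 genes, the order is the same, and no test compared the bins. Of the 27 neighbours called higher, 13 had every EV line under 0.5 CPM. Genes so low in EV lines could pass the count filter through the BCR-ABL1 lines, which favours a call of higher. The shares of higher neighbours are therefore in part fixed by the filter.

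**Figure D3:**
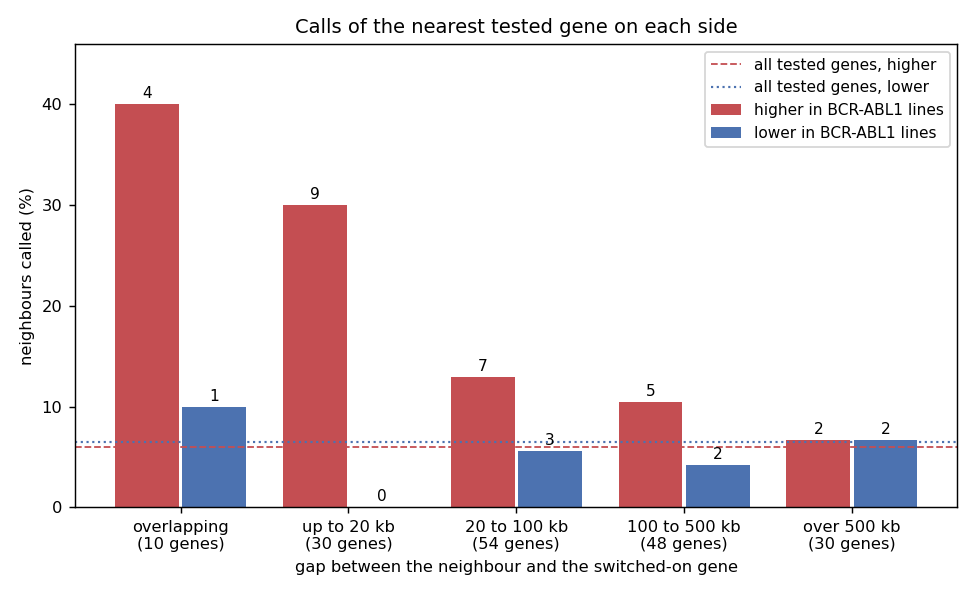
Percent of the nearest tested genes on each side of the 86 genes that edgeR called higher (red) or lower (blue) in BCR-ABL1 lines, by the gap between the genes. Numbers above the bars count the genes called, and the dashed and dotted lines mark the shares over all tested genes (5.99% higher and 6.49% lower). The red bars fall from 40.0% for overlapping genes to 6.67% beyond 500 kb.

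The 27 neighbours that were higher included 18 protein-coding genes, and 12 of the 27 were on the same strand as the gene they neighbour. Their log2 fold changes were between 1.13 and 8.26. Some are relatives of the gene beside them. Acvr1, 30.8 kb from Acvr1c, rose from 0 to 0.719 CPM to 2.38 to 5.28 CPM (log2 fold change 5.08, SE 0.75, edgeR adjusted p = 0.00997), and Slfn10-ps, 7.32 kb from Slfn8, by 1.57 (SE 0.32, edgeR adjusted p = 0.0119). Others are not. Uhrf2, a nuclear protein that binds modified DNA, lies 4.73 kb from Gldc and rose from a median of 63.0 CPM to 214 CPM. Dll4, a Notch ligand, lies 15.3 kb from Chac1 and had medians of 0.0978 CPM in EV and 1.61 CPM in BCR-ABL1 lines. Gm38137, 5.26 kb from Ctla4, was at 0 in the median EV line and at 0.613 CPM in the median BCR-ABL1 line. The neighbours Olfr56, Tmprss4, Gm33370 and C79130 overlap the spans of Tgtp1, BC049352, Gm8013 and Lmbr1.

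Among the 8 lower neighbours was Cd3d, a T cell receptor subunit 52.5 kb from Mpzl2, with a median of 0.559 CPM in EV and of 0.0732 CPM in BCR-ABL1 lines (log2 fold change -2.67, SE 0.28, edgeR adjusted p = 5.11e-04). The T and NK marker sum, mostly Trac in EV lines, moved the same way, as given above, and its part was not tested. Among fits that left out 1 line, that without EV line 2C changed these counts most. Without it, 37 of the neighbours were higher and 14 lower, and the count of all tested genes higher rose from 901 to 1353. DESeq2 called 24 neighbours higher and 4 lower. When the main test was run with mouse as replicate block, the counts were 29 and 9.

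Promoters of the 86 genes were compared with all promoters in their CpG content, since CpG-rich promoters belong mostly to widely used genes and CpG-poor ones to genes of single tissues. Of the 66 windows, 36 (54.5%, 95% Clopper-Pearson interval 41.8 to 66.9%) had a CpG ratio of at least 0.6, observed over expected. Over all 27025 promoters, 36.6% did, and over 9623 promoters of tested genes, 73.4%. The share of the 66 lay between those of the 2 backgrounds, both of which were outside its interval. The median ratio was 0.615, against 0.388 and 0.774. CpG-rich windows belonged for example to Rxra (1.08), Sh3bgrl2 (1.02), AA467197 (0.99) and Prnp (0.84), and CpG-poor ones to Ifit3 (0.06), Tgtp1 (0.06), Cdhr2 (0.16) and Rnase12 (0.22). Genes with no window here were Col5a2, Rgs1, Terc, Cdh17, Lrrc32, Cpe, Mpzl2, Sln, Zkscan7, Apof, Gm49331, Gm8332, Gm47916, Atxn1, Nid2, Ccn3, Adcy6, Jcad, Iigp1 and Spire1. Of the 66 windows, 6 start over 1000 bases from the gene's outermost GENCODE start, Ctla4 and Igf1 among them.

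**Figure D4:**
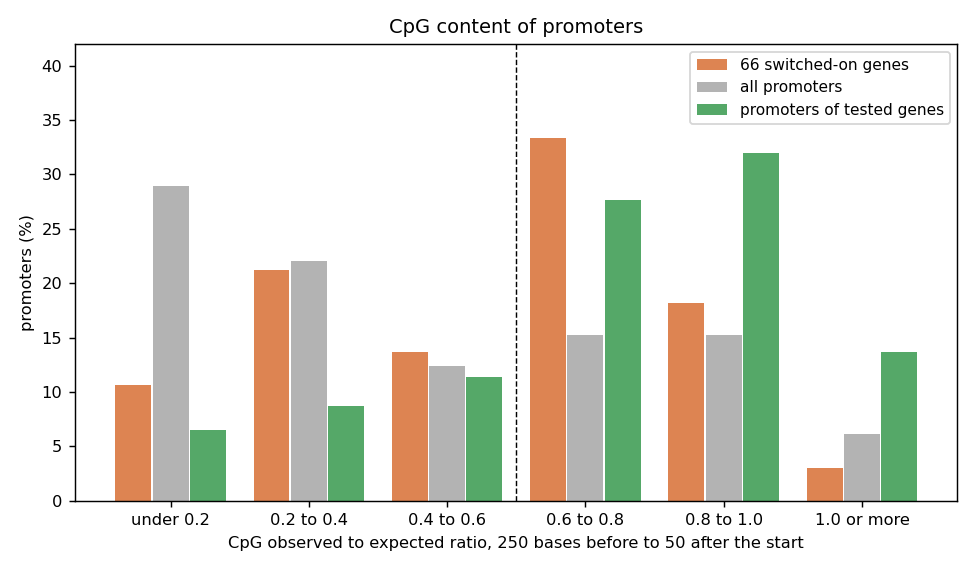
Share of promoters (y axis, percent) by their CpG observed to expected ratio (x axis) for 66 of the 86 genes, all 27025 promoters and 9623 promoters of tested genes. The dashed line marks a ratio of 0.6, above which lie 54.5%, 36.6% and 73.4% of them.

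Short motifs of known transcription factors were counted in the same windows on both strands. TTCNNNGAA, bound by STAT proteins, was in 4 of 66 windows (6.06%) and in 8.35% of all promoters. The 4 genes were Tgtp1, shown above, Gpm6a, Dnmbp and D030045P18Rik. The stretches that hold the motif in the last 3 are printed with it in capitals, 5′ to 3′ on the gene's strand, since STAT5 acts downstream of both IL7 and BCR-ABL1.
Gpm6a (chr8:54954498-54954557, plus strand): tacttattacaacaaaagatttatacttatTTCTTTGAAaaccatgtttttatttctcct
Dnmbp (chr19:43940329-43940388, minus strand): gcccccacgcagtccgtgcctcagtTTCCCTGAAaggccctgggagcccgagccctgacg
D030045P18Rik (chr10:45807694-45807753, plus strand): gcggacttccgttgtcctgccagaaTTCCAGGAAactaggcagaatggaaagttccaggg
TGANTCA, of AP-1, was in 9.09% of windows (Capn2, Prnp, Igf1, P2rx7, Ifit3 and AA467197) and in 7.89% of all promoters, and CACGTG, the E-box, in 7.58% and 7.20%. GGGCGG, of Sp1, was in 42.4% and 36.0%, and in 64.0% of promoters of tested genes. The TATA box motif TATAAA was in 7.58% and 14.2%, and the RUNX motif TGTGGT in 9.09% and 16.9%. The motif of the GATA factors, AGATAA, was in 4.55% and 11.4%. Among motifs of the ETS family, CCGGAAGT was in 3.03% and 4.01%, and GAGGAAGT, preferred by PU.1, in 1.52% and 3.25%. For each of the 9 motifs the share of all promoters lay within the 95% Clopper-Pearson interval of the windows' share. A motif not found is only not in this window, and 20 of the 66 windows held none of these 9.

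The thresholds cut through a continuous range. Just inside lay Mfsd2a, Rab32 and Rabl2, whose lowest BCR-ABL1 lines had 1.01, 1.04 and 1.05 CPM, and Rprm, Gm3604 and Slc4a8, each with 0.489 CPM in EV line 2A. Just outside lay Gm25052, S100a6 and Pros1, with 0.998, 0.973 and 0.964 CPM in their lowest BCR-ABL1 lines, and Nrp2, Nrg4 and Ifit1bl1, with 0.517, 0.522 and 0.525 CPM in their highest EV lines.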

How the data were processed

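Total RNA of 12 cell lines was made into stranded libraries after removal of ribosomal RNA and sequenced from both ends with 150 base reads. The deposited table holds raw read counts per gene, which the authors made from reads aligned to GRCm38. The submitters' processing notes name FastQC 0.11.5, Trimmomatic 0.36, TopHat2 2.1.1, Bowtie2 2.3.2, featureCounts 1.5.3, R 3.6.1 and edgeR 3.18.1. The strand setting and the annotation release used for counting are not given in the sources used here. Lines were grouped by their labels, with the number in a label read as the mouse, and nothing in the labels names a batch.

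CPM was computed from the column sums. The genes, the gene lists and the roles were chosen with earlier results of these data known. Some genes of the lists are not reported by name here. The genes named are those highest per kb of merged exons, on a list, near each other on a chromosome, most different between the mice or nearest to a threshold, and others by their function. Fits ran in edgeR 4.0.16 (R 4.3.3) over all genes passing its count filter, with TMM scaling, the quasi-likelihood fit and Benjamini-Hochberg adjustment at 0.05. The conditions were tested against a 1.5-fold change, and the mice, within the BCR-ABL1 lines, against no change. DESeq2 1.42.0, other scaling, no filter, replicate blocks and leaving out each line were the alternatives. Lines of the same mouse deviated together (correlations of deviations from the condition means 0.0853 to 0.240), whereas lines of different mice did not (-0.203 to -0.0636). Deviations cancel within each condition, so the negative values follow from the positive ones. Anything else that lines of one mouse share cannot be told apart from the animal. No 2 lines agreed within sampling noise.

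The fits were tested on data drawn with known changes. In the comparison of conditions over 15038 genes, 32 of 100 changes of 2-fold and 86 of 100 of 4-fold were recovered. In the comparison of mice over 15195 genes, 89 of 100 and 100 of 100 were. Genes drawn without a change were called as well, 4 between the conditions and 13 between the mice. Gene positions came from GENCODE M21, and promoters from RefSeq (GRCm38.p6). Tables and plots were made with Python 3.11.15, pandas 2.3.3 and matplotlib 3.10.9. Intervals cover counting error only.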

Additional observations from a re-analysis of the deposited data

Results flagged for a closer look

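Of 52 groups of 6 lines examined with Dixon's test, 2 held a line far from the others, and chance gives such a line in about 1 in 20 groups. Cdhr2 had 5.41 CPM in BCR-ABL1 line 1A, while the other 5 BCR-ABL1 lines had 12.1 to 15.4 CPM. The summed level of the 86 genes was 20.8 CPM in EV line 2A, while the other 5 EV lines had 5.40 to 9.90 CPM.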

How the results depend on the processing

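The number of genes that met the rule was 14 with thresholds of 0.25 and 2 CPM and 155 with 1 CPM for both, and 86 to 113 when any line was left out, highest without EV line 2A. With all 12 lines in the fit, 12 of the 86 were called higher in mouse 1 and 9 in mouse 2 (518 and 557 over all genes). Without 1 BCR-ABL1 line these counts were 25 to 33 and 11 to 16 (1213 to 2434 and 1093 to 2112 over all genes). Tested against no change, 3389 genes were higher in BCR-ABL1 lines, and 74 neighbours were higher and 26 lower. Without 1 line the ranges were 807 to 1353 genes, 25 to 37 neighbours higher and 6 to 14 lower, each highest without EV line 2C. DESeq2 called 4 neighbours lower, and 1 was called without the filter. With the 2 nearest genes on each side, 57 were higher and 17 lower, and within 20 kb, a distance chosen after seeing the data, 13 and 1. Within 200 kb of each other were 2 of the 86 genes. Against promoters of tested genes, the shares differed by -18.84 (CpG ratio), -6.10 (CCGGAAGT) and -21.6 (GGGCGG) percentage points. The cause of these differences was not tested.

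With mouse as replicate block, 1126 genes, 29 neighbours higher and 9 lower were called. Line letters do not pair lines of the 2 mice (correlations -0.144 to 0.0188). With the letter as replicate block, 29 and 14 of the 86 were called between the mice. Of 550 alternatives for single named genes, 516 kept direction and call, 21 lost the call, 13 gained it and 0 reversed. The 2 mice limit every comparison between them.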
